A study of Mus musculus with 12 samples.

Results

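The 10 integrin chains described here, Itga4, Itgb7, Itgb1, Itgal, Itgb2, Itgae, Itgav, Itgb3, Itga6 and Itgb8, were listed by name for their part in the entry of T cells into the central nervous system (CNS) and in their stay there. All 10 had a row among the 47359 genes measured. RNA was sequenced from transferred TH17 cells that were recovered from the CNS of RAG2-/- mice at the height of experimental autoimmune encephalomyelitis, in which autoreactive T cells inflame the brain and spinal cord. RAG2-/- hosts lack endogenous lymphocytes with rearranged receptors but keep myeloid cells, NK cells and all cells of the CNS. The donor genotypes were 2D2-WT (WT here) and 2D2-IL-17A/F-DKO (DKO here), which lacks Il17a and Il17f, and 2D2 is a transgenic T cell receptor against a myelin protein. Each library came from 1000 living cells carrying either CXCR6 or SLAMF6 on their surface, which gave 5 libraries of each subset for WT and 1 of each for DKO. The labels used here give no age and no way of priming. They number the libraries m1 to m5 in each WT subset and m0 in each DKO subset, without saying what m stands for. Whether libraries of a group came from separate animals is not stated. The p-values therefore measure only the spread between these libraries, which may be technical. Each DKO value rests on a single library.

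Integrins are pairs of an α and a β chain that hold a cell to ligands on other cells or in the matrix. On T cells, α4β1 binds VCAM-1 on inflamed brain vessels and is the target of natalizumab, α4β7 binds MAdCAM-1 of gut vessels, and αLβ2 (LFA-1) binds ICAM-1 during arrest and crawling. The chain αE pairs with β7 and binds E-cadherin on epithelium, α6β1 binds laminin of basement membranes, and αvβ3 and αvβ8 bind matrix proteins and the latent form of TGF-β. RNA levels do not show which pairs reach the surface.

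The 5 WT CXCR6+ libraries held 6818658 to 8710148 counts each, the 5 WT SLAMF6+ libraries 8134987 to 11635037, and those of DKO 8552216 (CXCR6+) and 8285134 (SLAMF6+). Levels are given as CPM, a gene's share of the library's counts scaled by TMM factors. Il17a ran from 190.6 to 465 CPM in the WT libraries, with 0 counts in DKO CXCR6+ and 3 counts in DKO SLAMF6+. The DKO libraries went against the 2D2 part of their label: Trbv16, the segment of the 2D2 β chain, made up 99.6 to 99.8% of Trbv counts in WT but 9.96% in DKO CXCR6+ and 6.51% in DKO SLAMF6+. They also lacked Xist and held the Y-linked Ddx3y (36.3 and 36.1 CPM), while no WT library had a count of Ddx3y, so genotype, receptor and donor sex cannot be told apart in any DKO comparison below. All 8 T cell markers (Cd3e, Cd3d, Cd3g, Cd247, Cd4, Trac, Cd28 and Lck) were present in every group, and 5 of them were lower in the CXCR6+ subset of WT. Trac averaged 2610 and 3944 CPM in the WT subsets and stood at 542.5 and 728 CPM in DKO, while 5 markers were called higher in DKO CXCR6+ and 4 in DKO SLAMF6+. Of the genes of the sorted receptors, Cxcr6 overlapped between the WT subsets and Slamf6 did not. Cxcr6 spanned 4.34 to 42.9 CPM in WT CXCR6+ and 11.4 to 19.2 CPM in WT SLAMF6+ (adjusted p 0.251, edgeR) and stood at 382 and 162 CPM in the DKO libraries. Slamf6 spanned 1.69 to 5.02 and 5.90 to 10.98 CPM in the WT subsets and stood at 75.8 and 259 CPM in DKO. In WT, mitochondrial genes took 12.9 to 17.6% of counts in CXCR6+ and 2.20 to 5.24% in SLAMF6+, and ribosomal protein genes took 10.6 to 12.2% and 21.6 to 22.8%. The summed markers of dendritic cells (258 to 352 CPM in CXCR6+, 560 to 640 CPM in SLAMF6+), astrocytes (84.3 to 112 against 203 to 232 CPM), oligodendrocytes (65.5 to 75.1 against 123 to 149 CPM) and myeloid cells (23.2 to 52.1 against 68.8 to 92.2 CPM) were all higher in WT SLAMF6+. The first 3 of these sums were carried by Batf3, H2-Ab1 and Cd74, by Aldoc and Gja1, and by Cnp and Mbp, while Xcr1, Clec9a, Gfap, Aqp4, Mog, Lyz2 and C1qa averaged under 1 CPM in both WT subsets. The part of RNA composition and of these cells in the subset differences was not tested.

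The start regions of Itga4, Itgb7 and Itgav are shown because the first pair had the largest rises in DKO in both subsets and Itgav was the chain that was lower in both. RefSeq's GRCm38.p6 table held such a region for 5 of the 10 genes, of which Itgb1 and Itgb8 are not printed. Each line gives the 250 bases before the annotated start, 5′ to 3′ on the gene's strand, at chr2:79255176-79255425 (plus strand) for Itga4, chr15:102231936-102232185 (minus) for Itgb7 and chr2:83724147-83724396 (plus) for Itgav. Capitals mark matches to 4 motifs searched on both strands, chosen after the values were seen: RUNX (TGTGGT), ETS (GGAAGT), a GC box (GGGCGG) and KLF (CCACCC).
Itga4: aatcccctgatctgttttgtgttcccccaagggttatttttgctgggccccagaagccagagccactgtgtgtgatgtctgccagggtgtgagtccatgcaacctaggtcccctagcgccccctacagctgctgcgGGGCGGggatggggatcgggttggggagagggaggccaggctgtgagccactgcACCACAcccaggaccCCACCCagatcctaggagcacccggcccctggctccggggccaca
Itgb7: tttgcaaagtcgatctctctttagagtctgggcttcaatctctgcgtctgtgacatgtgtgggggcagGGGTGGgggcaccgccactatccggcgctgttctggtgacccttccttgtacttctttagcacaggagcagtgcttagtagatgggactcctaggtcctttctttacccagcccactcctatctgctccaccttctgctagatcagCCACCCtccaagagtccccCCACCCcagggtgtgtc
Itgav: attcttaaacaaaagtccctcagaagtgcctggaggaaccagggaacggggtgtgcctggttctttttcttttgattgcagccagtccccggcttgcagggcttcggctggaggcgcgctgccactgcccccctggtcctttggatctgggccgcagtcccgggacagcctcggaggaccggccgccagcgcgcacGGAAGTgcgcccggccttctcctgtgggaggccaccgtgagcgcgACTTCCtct
Itga4 held 1 RUNX, 1 GC box and 1 KLF match, Itgb7 held 3 KLF matches, and Itgav held 2 ETS matches. Of 32851 such regions, 14% held the RUNX letters, 19.7% the ETS letters, 32.7% the GC box and 28.1% the KLF letters, each counted as at least 1 match. The matches describe the letters and do not show binding.

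In the WT libraries, 3 of the 9 chains that passed the filter on low counts were higher in CXCR6+ than in SLAMF6+ cells and none was lower: Itgb7, Itgb1 and Itgav. Over all 21565 genes tested, 33.3% passed the same test and 15.6% were higher in CXCR6+, so a count of 3 among 9 is near the background. The median log2 fold change of the 9 chains was 0.53, against 0.13 over all tested genes. These same 3 chains were the only members whose WT subsets did not overlap, which held for 27.8% of tested genes.

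**Figure D1:**
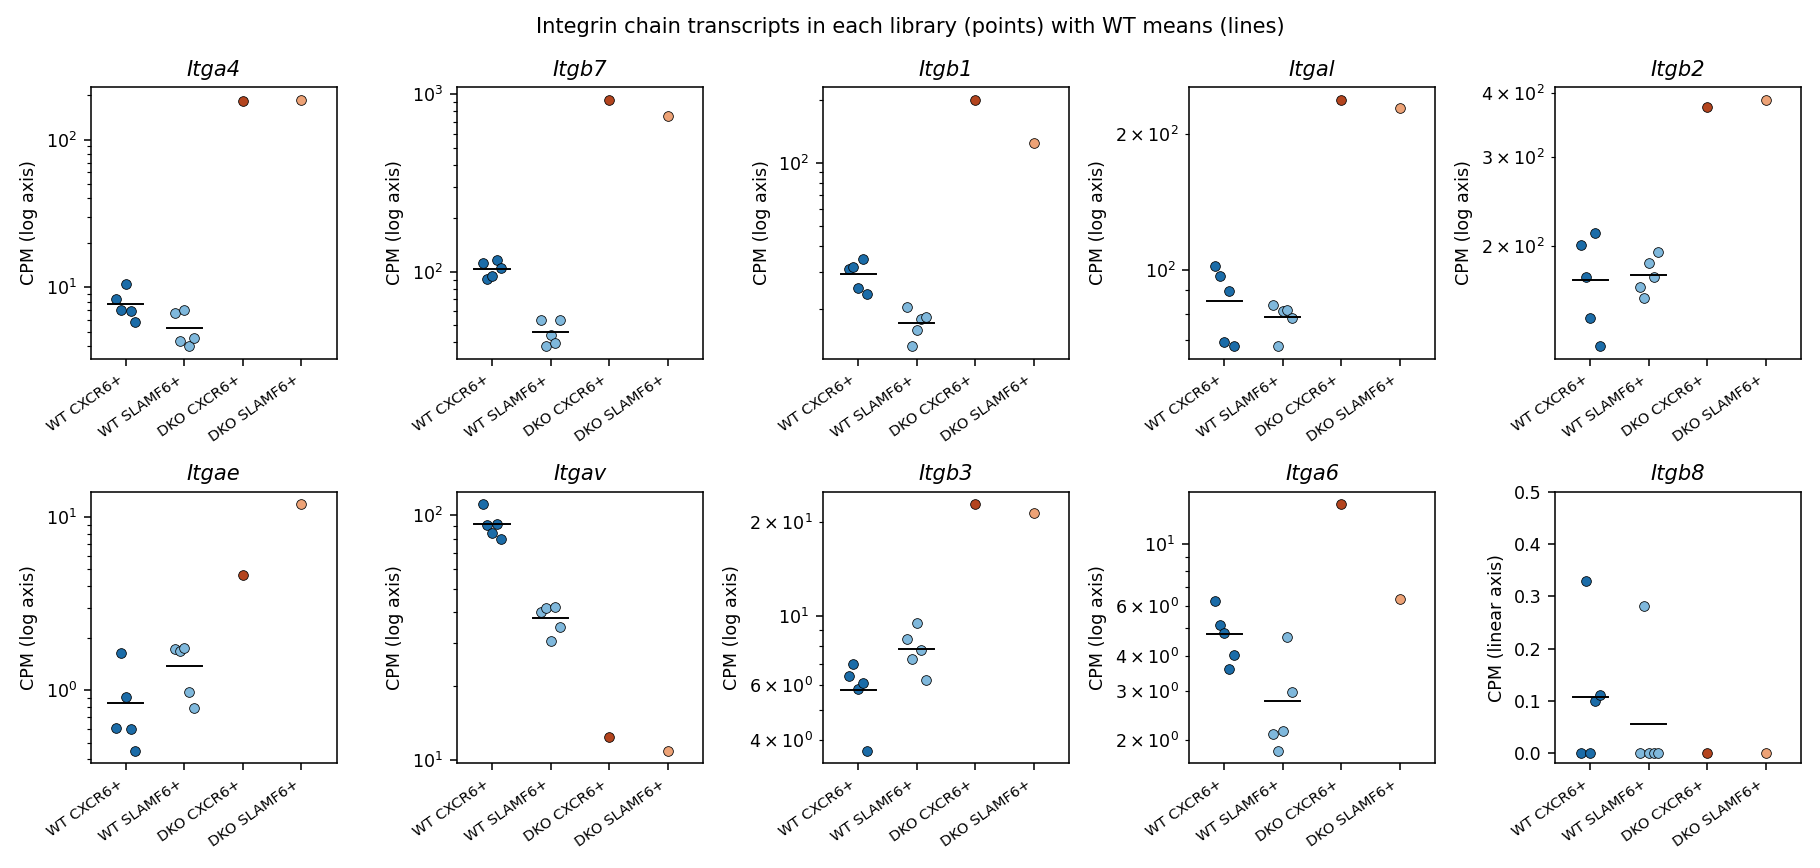
Each point is 1 library; the vertical axes give CPM on a log scale, except for Itgb8 (linear), and the lines are means of 5 WT libraries. Itgb7, Itgb1 and Itgav separated the WT subsets, and 8 chains were higher and Itgav lower in both DKO libraries than in all 10 WT libraries.

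Itgb7 (chromosome 15, 102215995 to 102231944, GRCm38) encodes the β chain shared by α4β7 and αEβ7. It stood at 111, 91.3, 94.9, 116 and 105 CPM in WT CXCR6+ replicates 1 to 5, and at 53.1, 37.9, 43.9, 39.6 and 53.7 CPM in WT SLAMF6+ replicates 1 to 5. Every CXCR6+ library lay above every SLAMF6+ library, and the means were 104 ± 10.4 and 45.7 ± 7.43 CPM (SD, n = 5 each). The log2 fold change was 1.18 ± 0.11 (SE; adjusted p 1.84e-05, quasi-likelihood F test of edgeR, adjusted over all tested genes by Benjamini-Hochberg).

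Itgav (chromosome 2, 83724397 to 83806916), the αv chain, showed the largest subset difference of the members. Its CXCR6+ values were 110.5, 90.5, 84.7, 91.8 and 79.7 CPM, and its SLAMF6+ values 40.2, 41.8, 30.4, 41.9 and 34.8 CPM. Again no library of one subset reached the range of the other (91.4 ± 11.7 against 37.8 ± 5.05 CPM; log2 1.27 ± 0.11, adjusted p 1.09e-05 by the edgeR test). The span of the transcript Gm13684 overlaps that of Itgav on the opposite strand. Gm13684 moved with Itgav in WT, with means of 8.83 and 3.77 CPM in CXCR6+ and SLAMF6+. Overlap of exons was not checked, so without strand its reads may be mixed with those of Itgav.

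Itgb1 (chromosome 8, 128685654 to 128733200), the β1 chain that completes α4β1 and α6β1, differed less. It stood at 31.1, 31.8, 25.1, 34.8 and 23.5 CPM in CXCR6+ against 20.5, 13.2, 15.8, 17.9 and 18.3 CPM in SLAMF6+, a difference that passed (log2 0.77 ± 0.14, adjusted p 0.00138, edgeR). The lowest CXCR6+ library was still above the highest SLAMF6+ library. WT libraries also differed by mt-Ts1, a mitochondrial tRNA gene listed at 0 counts in 1 CXCR6+ and 4 SLAMF6+ libraries. Among those libraries the log2 differences were 1.22 for Itgb7, 0.78 for Itgb1 and 1.58 for Itgav, and among the other libraries, 4 CXCR6+ and 1 SLAMF6+, they were 1.42, 1.13 and 1.05.

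The LFA-1 chains did not differ detectably between the WT subsets. Itgal (chromosome 7, 127296260 to 127335138), the αL chain, stood at 102, 97.0, 69.3, 89.7 and 67.7 CPM in CXCR6+ against 83.8, 67.7, 81.1, 81.6 and 78.1 CPM in SLAMF6+. The ranges overlapped throughout (log2 0.12 ± 0.12, adjusted p 0.487, edgeR). With genes of at least 10 CPM in 5 libraries alone, the Itgal difference passed (0.40, adjusted p 0.00755; 0.00755 to 0.941 over all alternatives). Itgb2 (chromosome 10, 77530252 to 77565708), the β2 chain, averaged 171.5 ± 36.2 CPM in CXCR6+ against 175 ± 14.6 CPM in SLAMF6+, with overlapping ranges (log2 -0.03 ± 0.13, adjusted p 0.883, edgeR). Its sign turned under 10 of 26 alternatives, with values from -0.12 to 0.24, so it has no stable direction in WT.

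The α4 chain was a low transcript in WT. Itga4 (chromosome 2, 79255426 to 79333123) had 8.33, 7.02, 10.5, 6.97 and 5.80 CPM in CXCR6+ against 6.70, 4.35, 7.05, 3.99 and 4.55 CPM in SLAMF6+, from 31 to 92 counts a library. The CXCR6+ mean was the higher one, but the ranges overlapped and the difference did not pass (log2 0.53 ± 0.20, adjusted p 0.0681, edgeR). It passed in 6 of 25 alternatives, with adjusted p from 0.00768 to 0.147 over all of them. The span of Cerkl, on the opposite strand, overlaps that of Itga4, and Cerkl averaged 6.68 and 6.97 CPM in the WT subsets. Overlap of exons was not checked, so at this level its reads may be mixed with those of Itga4.

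Itga6 (chromosome 2, 71745616 to 71858416), the laminin-binding α6 chain, averaged 4.77 ± 1.05 CPM in CXCR6+ against 2.74 ± 1.16 CPM in SLAMF6+, which did not pass (log2 0.79 ± 0.29, adjusted p 0.0604, edgeR). WT SLAMF6+ replicate 4 was the high one of its group at 4.67 CPM. Without that library the difference was 1.07 (adjusted p 0.0093), and over all 25 alternatives the adjusted p ran from 0.0075 to 0.208, passing in 8. Itgb3 (chromosome 11, 104608000 to 104670476), the β3 chain, spanned 3.68 to 7.02 CPM in CXCR6+ libraries and 6.23 to 9.49 CPM in SLAMF6+ libraries (log2 -0.44 ± 0.19, adjusted p 0.105, edgeR). The ranges overlapped, and the difference passed in 1 of 25 alternatives, the fit with GC and length offsets (-0.63, adjusted p 0.0204, within a span of 0.0204 to 0.375).

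The residency chain αE was close to the detection limit. Itgae (chromosome 11, 73090583 to 73147446) had 4 to 15 counts in the CXCR6+ and 8 to 18 in the SLAMF6+ libraries of WT, or 0.841 ± 0.481 and 1.39 ± 0.466 CPM (log2 -0.71 ± 0.42, adjusted p 0.209, edgeR). The span of the kinase gene Haspin overlaps that of Itgae on the opposite strand, and Haspin averaged 10.4 and 8.58 CPM. Overlap of exons was not checked, so the origin of these few counts is uncertain. Itgb8 (chromosome 12, 119158022 to 119238802), the β8 chain that with αv activates TGF-β, had 0 to 3 counts a library, 5 in all of WT CXCR6+, 2 in all of WT SLAMF6+ and 0 in each DKO library. It was not tested, and a count of 0 allows up to 3 counts, so no difference is given.

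Ratios of chains within a library do not depend on how that library is scaled. Each of the 4 ratios holds Itgb7 or Itgb1, which were themselves higher in WT CXCR6+. The ratios are therefore not independent of those differences. The log2 ratio of Itgb7 to Itgb1 counts was 1.83 ± 0.23 in WT CXCR6+ and 1.41 ± 0.16 in WT SLAMF6+ (difference 0.42, exact permutation p 0.0159, adjusted over 4 ratios 0.0212, two-sided, n = 5 each). Thus Itgb7 exceeded Itgb1 by more in CXCR6+, although the lowest CXCR6+ library (1.52) fell just below the highest SLAMF6+ library (1.55). The ratio of Itga4 to Itgb7 was lower in CXCR6+ (-3.76 ± 0.39 against -3.11 ± 0.34, exact permutation p 0.0238, adjusted 0.0238, n = 5 each).

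The ratio of Itgae to Itgb7 was also lower in CXCR6+, by 1.94 on the log2 scale (-6.99 ± 0.81 against -5.04 ± 0.62, exact permutation p 0.0159, adjusted 0.0212, n = 5 each). Itgb2 to Itgb1 gave the clearest split, 2.54 ± 0.11 against 3.36 ± 0.23 with no overlap (exact permutation p 0.00794, the smallest that 5 against 5 libraries can give, adjusted 0.0212). In DKO CXCR6+ and SLAMF6+, Itga4 to Itgb7 stood at -2.35 and -2.02 and Itgb2 to Itgb1 at 0.91 and 1.65, all outside the range of the 10 WT libraries. Itgb7 to Itgb1 (2.22 and 2.60) also lay above every WT library, while Itgae to Itgb7 (-7.64 and -5.98) lay within the WT range.

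**Figure D2:**
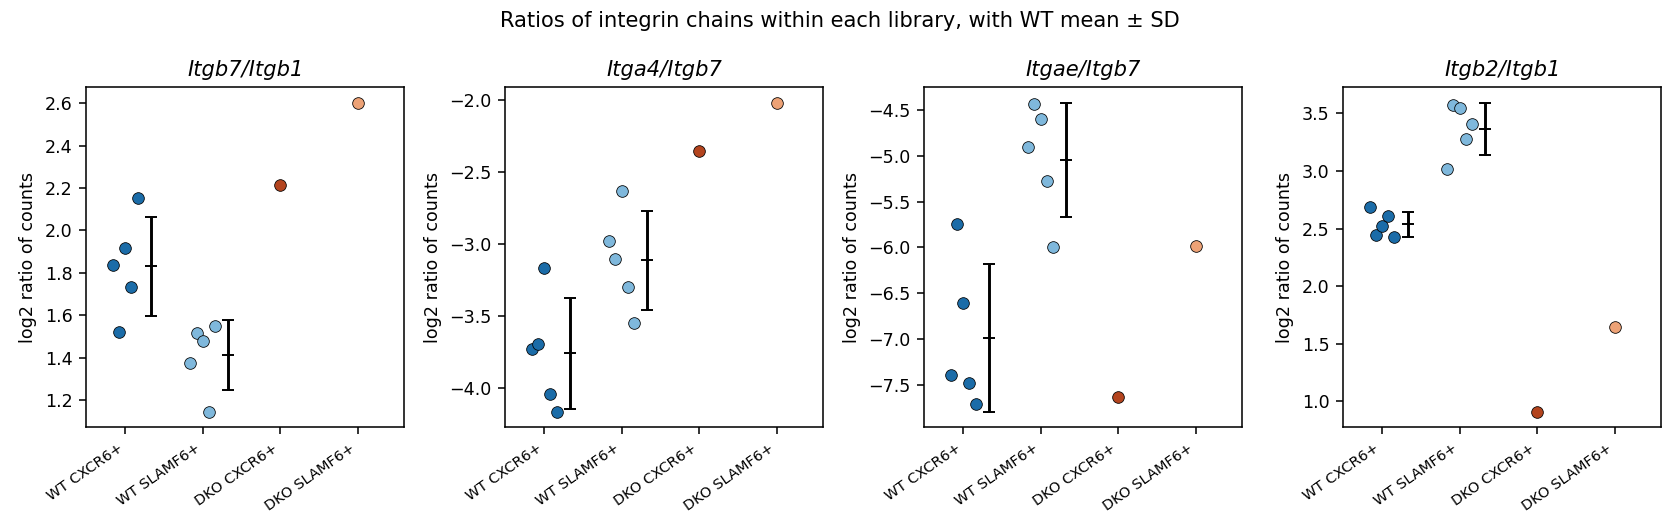
Each point is the log2 ratio of the counts of 2 chains in 1 library, and the bars beside the WT points are mean ± SD (n = 5). Only Itgb2 to Itgb1 separated the WT subsets without overlap, and the DKO values of that ratio (0.91 and 1.65) lay below all WT libraries.

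Both DKO libraries held far more RNA of most chains. In CXCR6+ cells 8 of the 9 tested chains were higher in the DKO library and 1, Itgav, was lower, while of all tested genes 28.7% passed, 12.8% higher and 15.9% lower in DKO. In SLAMF6+ cells 7 were higher and 1 lower, against 31.1% of all tested genes (13.5% higher, 17.5% lower). The median log2 fold change of the 9 chains was 1.98 in CXCR6+ and 1.54 in SLAMF6+, against -0.22 and -0.05 over all tested genes. In 8 of 10 chains both DKO libraries lay above all 10 WT libraries, which held for 14.2% of tested genes, and in 1 both lay below (15.1% of tested genes). Called higher in both subsets were 7 chains (6.63% of tested genes) and lower in both 1 (10.6%). Both comparisons take their spread from WT, and some markers of other cells were higher in the DKO libraries, as given below.

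**Figure D3:**
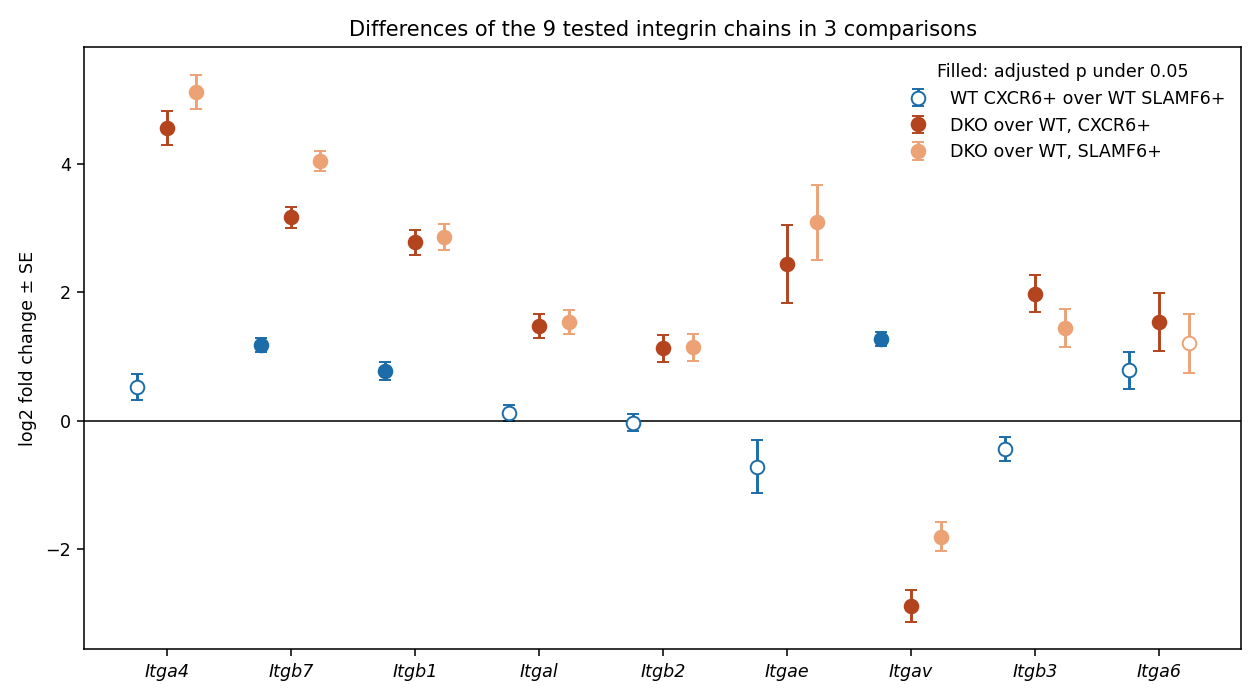
Points are log2 fold changes from edgeR with their SE for the 9 tested chains, filled where the adjusted p is under 0.05. Itga4 and Itgb7 stood highest in DKO over WT, Itgav was the only chain below 0 in both subsets, and the WT subset differences ran from -0.71 to 1.27.

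Itga4 rose most in DKO. It reached 183 CPM, 1580 counts, for DKO CXCR6+ cells and 186.5 CPM, 1288 counts, for DKO SLAMF6+ cells, where no WT library exceeded 10.5 CPM. The log2 fold changes were 4.56 ± 0.27 (adjusted p 6.9e-07) in CXCR6+ and 5.12 ± 0.27 (adjusted p 3.72e-07) in SLAMF6+ by edgeR's quasi-likelihood test. Its opposite-strand neighbour Cerkl stood at 14.6 and 6.37 CPM in these libraries.

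The β partners of α4 rose as well. Itgb7 stood at 932 CPM for DKO CXCR6+ cells and 755 CPM for DKO SLAMF6+ cells (log2 3.17 ± 0.16, adjusted p 3e-07, and 4.05 ± 0.16, adjusted p 7.23e-08, edgeR). Itgb1 stood at 201 and 124 CPM (log2 2.78 ± 0.20, adjusted p 2.45e-06, and 2.86 ± 0.20, adjusted p 2.41e-06, edgeR). For Itga4, Itgb7 and Itgb1 every DKO value was more than 3 times the highest WT value.

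LFA-1 transcripts rose less. Itgal stood at 238 CPM for DKO CXCR6+ cells and 227.5 CPM for DKO SLAMF6+ cells (log2 1.48 ± 0.19, adjusted p 0.000154, and 1.54 ± 0.19, adjusted p 0.000123, edgeR). Itgb2 stood at 376 and 389 CPM (log2 1.13 ± 0.21, adjusted p 0.00214, and 1.15 ± 0.21, adjusted p 0.00194, edgeR). Itgb2 is expressed by nearly all leukocytes, and some markers of other cells were higher in DKO. The summed level of 6 neutrophil genes was 929 CPM for DKO CXCR6+ cells and 82.1 CPM for DKO SLAMF6+ cells against at most 2.90 CPM in WT. S100a8 and S100a9 carried it (498 and 426 CPM in the CXCR6+ library, 26.2 and 45.6 CPM in the SLAMF6+ one), and 2 and 3 of the 6 genes were at 0 counts, Mpo in both libraries. For 6 NK and innate genes the sums were 74.0 and 293 CPM against at most 3.51 CPM in WT, with all 6 detected in both DKO libraries. For 8 dendritic cell genes they were 169.5 CPM in DKO CXCR6+, where Xcr1 and Siglech were at 0 counts, and 1017 CPM in DKO SLAMF6+ with all 8 detected, against 258 to 640 CPM in WT, so that DKO CXCR6+ lay below and DKO SLAMF6+ above the WT libraries. For 14 myeloid genes the sums were 63.7 CPM with 8 at 0 counts and 104 CPM with 3 at 0 counts, against 23.2 to 92.2 CPM in WT, so that DKO CXCR6+ lay within the WT range. Red cell genes summed to 143700 CPM in DKO SLAMF6+ and at most 3.59 CPM in every other library, and 7 oligodendrocyte genes, mostly Cnp and Mbp, to 249.7 and 234 CPM in DKO against at most 149 CPM in WT. The part of these cells in the integrin values was not tested. In such bulk libraries a change in the share of a cell type and a change in RNA per cell cannot be told apart.

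The αv, β3 and α6 chains went different ways. Itgav fell to 12.4 CPM, 107 counts, for DKO CXCR6+ cells and 10.9 CPM, 75 counts, for DKO SLAMF6+ cells, where no WT library was below 30.4 CPM (log2 -2.88 ± 0.25, adjusted p 8.46e-06, and -1.80 ± 0.23, adjusted p 0.000174, edgeR). Its possible partner Itgb3 rose to 22.9 and 21.4 CPM (log2 1.98 ± 0.29, adjusted p 0.00037, and 1.45 ± 0.30, adjusted p 0.00342, edgeR). Platelets are rich in β3, and the summed level of 7 platelet genes was 1.27 and 1.88 CPM in DKO against 0.598 to 2.87 CPM in WT. These sums rest on few counts, with Pf4 at 0 counts in both DKO libraries, and the part of platelets in the Itgb3 values was not tested. Itga6 stood at 13.9 CPM in DKO CXCR6+ (log2 1.54 ± 0.45, adjusted p 0.0236, edgeR), a call that ended with no filter on low counts (adjusted p 0.05) and without replicate 5 of both WT subsets (adjusted p 0.0559), within 0.00168 to 0.0559 over all alternatives. In DKO SLAMF6+ it stood at 6.37 CPM (log2 1.21 ± 0.46, adjusted p 0.0719), which passed in 6 of 24 alternatives (0.0126 to 0.168).

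Itgae rose from its low WT level to 4.62 CPM, 40 counts, for DKO CXCR6+ cells and 11.9 CPM, 82 counts, for DKO SLAMF6+ cells. Both values were above all WT libraries, whose highest was 1.76 CPM (log2 2.44 ± 0.61, adjusted p 0.0108, and 3.09 ± 0.58, adjusted p 0.00203, edgeR). In CXCR6+ the call ended when only the groups compared entered the fit (adjusted p 0.055; 0.00163 to 0.055 over all alternatives). Haspin, the overlapping gene, was not higher there, at 6.36 and 7.68 CPM. Dendritic cells and regulatory T cells also express Itgae. Xcr1, a dendritic cell marker, stood at 16.5 CPM in DKO SLAMF6+ and at 0 counts in DKO CXCR6+. Of 6 regulatory T cell genes, Foxp3 was at 5.36 CPM (37 counts) in DKO SLAMF6+ and at 0 counts in DKO CXCR6+. In WT it had 9 counts in all of CXCR6+ and 3 in all of SLAMF6+. The sum of the 6 genes was 430 CPM in DKO SLAMF6+ and 678 CPM in DKO CXCR6+, against 1862 to 2705 CPM in WT. In WT that sum was carried by Il2ra, Tnfrsf18, Capg and Ctla4. Il2ra, Ctla4 and Tnfrsf18 were lower in both DKO libraries. Of 2 CD8 T cell genes, Cd8a stood at 15.6 CPM (108 counts) in DKO SLAMF6+ and at 0 counts in DKO CXCR6+. It had 3 counts in all of WT CXCR6+ and 1 in all of WT SLAMF6+. Cd8b1 went the other way, at 2.17 CPM in DKO SLAMF6+ and 1.16 CPM in DKO CXCR6+. Its WT means were 12.8 CPM in CXCR6+ and 21.3 CPM in SLAMF6+. The part of all these cells in the Itgae values was not tested.

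The subset difference within DKO could be set against that within WT, as an interaction, with 1 DKO library a subset. Of the 9 chains only Itgav passed (log2 -1.09 ± 0.30, adjusted p 0.0422, edgeR), where 10.3% of all tested genes passed, 3.94% in the same direction. In WT Itgav was higher in CXCR6+ by 1.27, and in the DKO pair by 0.19. The call is marginal: it was lost in 11 of 25 alternatives, with adjusted p from 0.00811 to 0.162, among them those without WT CXCR6+ replicate 2 (0.06) or 4 (0.0569) and without WT SLAMF6+ replicate 1 (0.057) or 5 (0.0642). Itgb7 missed the threshold (log2 -0.88 ± 0.27, adjusted p 0.0718) and passed in 5 of 25 alternatives (0.00359 to 0.171). Between the DKO libraries, with no test, Itga4 (log2 -0.03), Itgal (0.06), Itgb2 (-0.05) and Itgb3 (0.09) were close, Itgb7 (0.30), Itgb1 (0.69) and Itga6 (1.12) were higher in CXCR6+, and Itgae (-1.36) was higher in SLAMF6+.

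To compare chains with each other, CPM were divided by the summed length of all annotated exons of each gene. On this scale Itgb2 led in both WT subsets (56.2 ± 11.9 CPM per kb in CXCR6+, 57.5 ± 4.79 in SLAMF6+), followed by Itgb7 (37.4 ± 3.75 and 16.5 ± 2.68) and Itgal (12.97 ± 2.41 and 11.9 ± 0.968). In CXCR6+ the ranges of Itgb2 and Itgb7 overlapped, while in SLAMF6+ they did not. Itgav and Itgb1 came next and were not separated from each other in either subset (8.51 ± 1.09 and 7.17 ± 1.16 CPM per kb in CXCR6+, 3.52 ± 0.470 and 4.20 ± 0.678 in SLAMF6+).

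Itgb3, Itga4, Itga6 and Itgae followed in that order, from 0.983 to 0.184 CPM per kb in CXCR6+ and from 1.33 to 0.303 in SLAMF6+. Neighbours among them overlapped, except Itga6 and Itgae in CXCR6+ and Itgb3 and Itga4 in SLAMF6+. In both DKO libraries Itgb7 was first (336 and 273 CPM per kb) and Itgb2 second (123 and 127), and Itga4 stood at 13.1 and 13.3 CPM per kb, above Itgav at 1.15 and 1.01. The exon sum counts every annotated isoform, so a gene expressed from a shorter isoform is set too low on this scale.

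**Figure D4:**
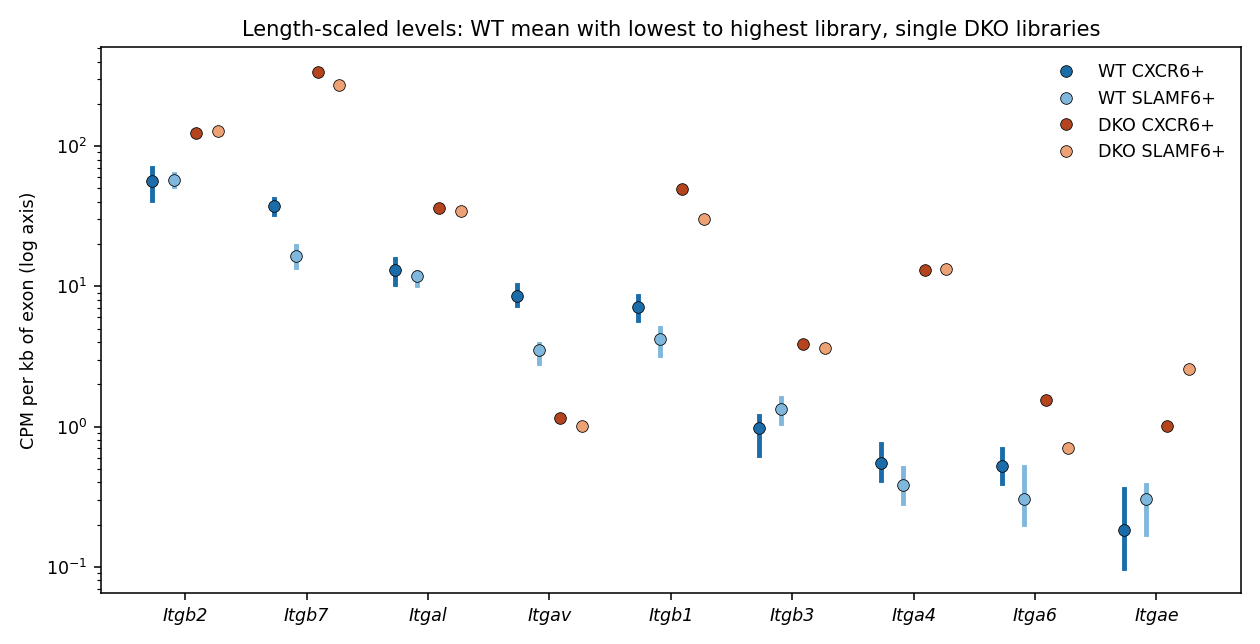
Points are means (WT) or single values (DKO) in CPM per kb of exon on a log axis, and bars run from the lowest to the highest of 5 WT libraries. Itgb2 leads in WT and Itgb7 in DKO, and Itgav is the only chain of the 9 shown whose DKO points lie below the WT ranges.

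For the related gene lists that follow, the shares of all tested genes called were 15.6% higher and 17.7% lower in WT CXCR6+ (33.3% in all), 12.8% and 15.9% in DKO CXCR6+ (28.7%), and 13.5% and 17.5% in DKO SLAMF6+ (31.1%), and the medians of all tested genes were 0.13, -0.22 and -0.05. Of 16 other integrin chains 12 were tested, and in WT 3 were higher in CXCR6+ and 1 lower (median log2 0.64), which is at the 33.3% of all tested genes. Itga3, an α chain for laminin, stood at 92.5 ± 8.43 against 49.7 ± 5.97 CPM (log2 0.89, adjusted p 3.51e-05, edgeR), and Itga5, the fibronectin receptor α chain, at 20.7 against 9.97 CPM (log2 1.05, adjusted p 0.000351). The third was Itga2b, and Itga7 was the lower one (log2 -0.43). In DKO 3 were higher and 4 lower in CXCR6+ (median -1.55) and 5 higher and 5 lower in SLAMF6+ (median -1.64). Itga3 fell to 6.13 and 3.33 CPM, Itga5 to 0.578 and 1.88 CPM and Itga7 to 3.58 and 8.25 CPM in DKO CXCR6+ and SLAMF6+. Itga1, the collagen-binding chain of many tissue T cells, was higher in DKO (19.0 and 3.33 CPM against 4 and 6 counts in all of each WT subset), as was Itgax, which marks dendritic cells but also some activated lymphocytes (12.6 and 15.1 CPM against 1 and 3 counts).

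Integrin activators and adhesion machinery, 26 of 28 tested, had 4 members higher and 8 lower in WT CXCR6+ (median log2 -0.04), where 15.6% of all tested genes were higher and 17.7% lower. Lower were Cytip, which restrains LFA-1 adhesion (337 ± 42.1 against 773.5 ± 31.3 CPM, log2 -1.20, adjusted p 2.23e-06, edgeR), Rap1a, the GTPase that switches integrins on (log2 -1.15), Parvg (-0.84) and the adaptor gene Skap1 (-0.79). In DKO 15 were higher and 2 lower in CXCR6+ and 12 higher and 3 lower in SLAMF6+ (medians 0.77 and 0.66, against -0.22 and -0.05 over all tested genes, of which 12.8% and 13.5% were higher). Rasgrp2, the exchange factor for Rap1, rose from 3.02 ± 1.71 to 212 CPM in CXCR6+ and from 3.58 ± 1.44 to 164 CPM in SLAMF6+. Apbb1ip, which encodes the talin recruiter RIAM, rose from 4.97 ± 0.622 to 70.5 CPM and from 2.68 ± 0.993 to 68.2 CPM. Ptk2, focal adhesion kinase, was at 0 counts in both DKO libraries and at 270 and 299 counts in all of each WT subset.

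Of 10 genes listed as integrin inhibitors, 3 were higher and 1 lower in WT CXCR6+ (median log2 0.27), and in DKO 5 were higher and 2 lower in each subset (medians 0.42 and 0.61). Over all tested genes 33.3%, 28.7% and 31.1% were called, with medians of 0.13, -0.22 and -0.05. Itgb1bp1, which encodes ICAP-1 and binds the β1 tail, stood at 31.0 ± 2.68 against 73.3 ± 6.45 CPM in WT (log2 -1.24, adjusted p 1.63e-06, edgeR), opposite to Itgb1. Sipa1, which switches Rap1 off, was higher in CXCR6+ (log2 0.92). Dok2 rose in DKO by 1.38 and 1.24 on the log2 scale.

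Ligands and ligand-side genes, 15 of 20 tested, had 4 members higher and 1 lower in WT CXCR6+ (median log2 0.53), and in DKO 2 higher and 9 lower in CXCR6+ and 3 higher and 7 lower in SLAMF6+ (medians -2.40 and -1.09). The WT count equals the 33.3% of all tested genes called, against 28.7% and 31.1% in DKO, with all-gene medians of 0.13, -0.22 and -0.05. Lama5, a laminin chain, stood at 165 ± 31.3 CPM for WT CXCR6+ cells and 73.4 ± 14.6 CPM for WT SLAMF6+ cells, and had 2 counts in DKO CXCR6+ and 57 in DKO SLAMF6+. Tgfb1, whose latent product αv integrins bind, was higher in WT CXCR6+ (10.8 ± 2.24 against 4.35 ± 1.04 CPM, log2 1.31, adjusted p 0.00133, edgeR). Lrrc32, which holds latent TGF-β on the T cell surface, had 358 and 515 counts in all of each WT subset and 0 and 1 count in the DKO libraries, while Icam2, an LFA-1 ligand, rose in DKO by 2.52 and 2.24.

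Other adhesion and rolling receptors, all 13 tested, had 1 member higher and 6 lower in WT CXCR6+ (median log2 -0.51), and 4 higher and 5 lower in DKO CXCR6+ and 3 higher and 2 lower in DKO SLAMF6+ (medians 0.16 and -0.37). Of all tested genes 33.3%, 28.7% and 31.1% were called (medians 0.13, -0.22 and -0.05), so the count in DKO SLAMF6+ is near the background. Selplg, which encodes the selectin ligand PSGL-1, was lower in WT CXCR6+ (299 ± 41.3 against 497 ± 40.6 CPM, log2 -0.73) and rose in DKO to 983 and 843 CPM. The tetraspanin gene Cd81 stood at 374 ± 93.4 and 504 ± 57.1 CPM in WT and had 7 and 136 counts in DKO. Alcam, a ligand of CD6 and a rolling receptor of the blood-brain barrier, was higher in WT CXCR6+ (log2 1.09) and changed by -4.70 and -4.59 in DKO.

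Residency and egress genes, all 26 tested, had 2 members higher and 8 lower in WT CXCR6+ (median log2 -0.26), and 12 higher and 5 lower in DKO CXCR6+ and 9 higher and 7 lower in DKO SLAMF6+ (medians 1.39 and 0.81), while of all tested genes 33.3%, 28.7% and 31.1% were called (medians 0.13, -0.22 and -0.05). The WT count is near that background. The list holds genes of opposite roles, so its median has no direction of its own. Klf2, the factor that maintains egress receptors, stood at 0.598 ± 0.212 and 0.358 ± 0.116 CPM in WT and 56.4 and 56.8 CPM in DKO (log2 6.53, adjusted p 3.49e-07, and 7.27, adjusted p 2.51e-07, edgeR). Its target S1pr1, an egress receptor, rose from 34.3 ± 4.22 to 199 CPM and from 41.7 ± 4.17 to 177 CPM, and S1pr4 rose by 3.25 and 2.72. Rgs1, a brake on chemokine receptors, changed by -4.62 and -4.61 on the log2 scale, and Ccr7 stood at 25.6 and 61.1 CPM against 351.5 ± 78.8 and 759.7 ± 42.7 CPM in WT.

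The protein-coding genes with the pattern most like a chain over all 12 libraries were taken from 4951 genes of at least 20 CPM on average, by the root mean square difference of centred log2 CPM. For Itga4 they were Cxcr3 (0.45) and Acsbg1 (0.53), for Itgb7 Chd3 (0.30) and Nbeal2 (0.40), and for Itgb1 Slc20a1 (0.18) and Nbeal2 (0.27). For Itgal they were H2-Q7 (0.12) and Gimap3 (0.13), and for Itgb2 Slfn2 (0.14) and Dok2 (0.15). Cxcr3, a chemokine receptor of TH1 cells, stood at 13.2 and 11.59 CPM in the WT subsets and at 217 and 229 CPM in DKO CXCR6+ and SLAMF6+. Acsbg1 (4.83 and 4.02 CPM) and Chd3 (12.7 and 7.23 CPM) were also below 20 CPM in WT. Cxcr3, Acsbg1 and Chd3 thus passed the filter only through the DKO libraries. The likeness includes the DKO change, which rests on 1 library a subset. H2-Q7 belongs to a family of near-identical class I genes, so its counts are uncertain.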

How the data were processed

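The authors deposited a table of expected counts per gene symbol for 12 libraries, whole numbers for which the submitters' processing notes name STAR 2.7.7a, RSEM 1.3.3 and mm10. Libraries were made with a modified SMART-Seq2 protocol and Nextera XT per the labels' protocols, which does not mark strand. The gene annotation and the treatment of multiply matching reads were not given in the sources used here.

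Groups came from the labels. All 12 libraries entered 1 edgeR 4.0.16 fit (R 4.3.3; TMM, filterByExpr, quasi-likelihood test, no block, Benjamini-Hochberg over 21565 genes, threshold 0.05); DKO libraries were assumed to vary like WT. SE are the log2 fold change over the root of the F statistic. Coordinates and exon lengths are from GENCODE M21 (GRCm38), which matched 87.4% of symbols. Ratios used a pseudocount of 0.5 counts and an exact permutation test. The floor is 3 counts. Alternatives used DESeq2 1.42.0, limma 3.58.1, other filters, offsets and left-out libraries. Named genes are all members, up to 4 called genes by p of each related list, and the 2 nearest patterns of 5 chains. The members and lists were chosen with earlier results of these data known. The fit was also run on simulated counts drawn with the spread estimated from these libraries, which cannot check that DKO varies like WT.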

Additional observations from a re-analysis of the deposited data

Results flagged for a closer look

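The subset difference of Itgav passed the test for a difference between genotypes, marginally and with 1 DKO library in each subset: the interaction was -1.09 on the log2 scale (adjusted p 0.0422, edgeR, Benjamini-Hochberg). Every WT CXCR6+ library lay above every WT SLAMF6+ library, while the DKO pair differed by 0.19. The call was lost in 11 of 25 alternatives (adjusted p 0.00811 to 0.162), of which 8 were among the 15 that left out libraries. In a check of 18 sets of 5 WT libraries for a value far from the others, with the critical ratio 0.71 for 5 libraries, 0 were flagged.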

How the results depend on the processing

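Of 892 values of single chains under the alternatives, 823 kept direction and side of the threshold, 14 lost their call, 27 gained one and 28 changed sign; the causes were not tested. Itgb7, Itgb1 and Itgav in WT, and Itga4, Itgb7, Itgb1, Itgal, Itgb2, Itgav and Itgb3 in both DKO comparisons, kept their calls in all that were run. In WT, chains called numbered 3, but 5 with DESeq2's Wald test or only the groups compared, and 6 with offsets for GC content and length; 3 to 4 without 1 library or 1 replicate number. At least 2-fold were 2841 of 7179 called genes. With 10 CPM in 5 libraries, 5 chains were tested and 5 called in each DKO comparison. For the interaction, 2 chains were called with the Wald test, the 10 CPM filter or the offsets, 0 with no filter, and 0 to 1 without 1 library or 1 replicate number. Sign changes in WT were Itgal -0.06 with the offsets, and Itgb2 0.01 with DESeq2's size factors or Wald test, 0.24 with the 10 CPM filter, 0.09 with only the groups compared, 0.11 with a term for mt-Ts1 and -0.12 to 0.10 without libraries. In the interaction they were Itgal 0.05 with the offsets (-0.13 to 0.04 without libraries), Itga6 -0.04 with the mt-Ts1 term (-0.03 to 0.53), Itgb1 (-0.17 to 0.03), and Itgb2 0.01 with limma-voom, 0.03 with no filter, 0.00 without receptor, mitochondrial and ribosomal protein genes and -0.15 to 0.08 without libraries. The offsets moved the median of all genes in DKO CXCR6+ from -0.22 to -0.03 and the share of calls that were higher in DKO from 44.6 to 55.0% (CXCR6+) and 43.5 to 58.6% (SLAMF6+); limma-voom gave 62.9 and 61.9%.

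The labels do not say whether equal numbers mark pairs. Over all tested genes, deviations of same-numbered WT libraries correlated at -0.012 to 0.029, and 2 of 5 matched their own number best. Noise in low-count genes can hide a pairing in this check, so it does not settle the question. Between same-numbered libraries, Itga4, Itgb7, Itgb1 and Itgav were higher in CXCR6+ in 5 of 5 and Itga6 in 4. Itgal and Itgb2 were higher in 3, and Itgae and Itgb3 in 0. With the replicate block, 4 chains were called in WT (Itga4 0.54, adjusted p 0.00768, was gained) and 6943 genes in all, and Itgb2 in the interaction was 0.01; DKO against WT cannot be estimated with that block. Under the replicate block the 4 ratios, 0.42, -0.65, -1.94 and -0.83, had adjusted p 0.0625, the smallest that 5 sign flips can give. Without 1 number, with 4 against 4 libraries, they were 0.37 to 0.52, -0.68 to -0.62, -2.10 to -1.81 and -0.95 to -0.75, with adjusted p 0.0381 to 0.0857. The haemoglobin genes, left out after seeing the data because they took 11.9% of DKO SLAMF6+ counts, changed no call of a chain. Low counts limit Itgae and Itgb8.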
